A study of Mus musculus with 28 samples.

Results

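A set of 8 genes that bring glucose into cells and commit it to glycolysis was followed in mouse fat: the glucose transporters Slc2a1, Slc2a3, Slc2a4 and Slc2a6, the hexokinases Hk1, Hk2 and Hk3, and Pfkfb3. They were taken by name, as the probe sets annotated to 1 of these genes and no other. This gave 17 of the 34958 probe sets that name 1 gene, and 8 of the 18194 genes tested. Each gene is represented by its brightest probe set, by the mean of all 28 arrays, and its other probe sets are given beside it.

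The tissue was the retroperitoneal fat pad, a visceral depot behind the kidneys, from mice of the strain spelled C57BK/6J in the labels and aged 9 weeks. They ate a control diet or a diet to which conjugated linoleic acid (CLA) was added at 0.5% as its trans-10 cis-12 isomer, a fatty acid known to lower body fat in mice. Sampling was on days 1, 2, 3, 4, 7, 10 and 17, which with 2 diets makes 14 groups of 2 arrays, and each day has its own controls. The pads of 10 mice were pooled, and the labels do not say if both arrays of a group come from different pools: 10 mice for each group would make up the 140 mice of the series record. If they share a pool, p-values for single days, for differences between days and for control days measure technical spread only. Values are log2 RMA signals, so a difference of 1 is a 2-fold change, and a gene is called changed at a limma adjusted p below 0.05, corrected over all genes. Both arrays of each group were alike, with r over genes from 0.979 to 0.995.

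Glucose enters cells through facilitative transporters of the GLUT family. GLUT4, encoded by Slc2a4, is stored in vesicles of adipocytes and muscle fibres and moves to the surface in response to insulin. GLUT1 (Slc2a1) is found in most cells, and GLUT3 (Slc2a3) and GLUT6 (Slc2a6) are prominent in neurons and leukocytes among other cells. Hexokinases then trap glucose as glucose 6-phosphate: Hk2 is the insulin-regulated form of fat and muscle, Hk1 is the form of most tissues, and Hk3 is mainly found in myeloid leukocytes. Pfkfb3 makes fructose 2,6-bisphosphate, the strongest activator of phosphofructokinase, and so sets how fast sugar passes down glycolysis.

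Promoter sequences are shown for Slc2a1, which rose, and for Hk2 and Pfkfb3, which fell, because their windows share a short motif although their transcripts went different ways. The windows hold the 250 bases before a transcription start in RefSeq (GRCm38.p6), written 5′ to 3′ on the strand of the gene. Capitals mark ACGTG on either strand, the core bound by hypoxia-inducible factors, which also lies within the E-box CACGTG. RefSeq windows were matched for 6 of the 8 genes, and Slc2a3 and Slc2a4 were not listed.
Slc2a1, chr4:119108495-119108744, plus strand: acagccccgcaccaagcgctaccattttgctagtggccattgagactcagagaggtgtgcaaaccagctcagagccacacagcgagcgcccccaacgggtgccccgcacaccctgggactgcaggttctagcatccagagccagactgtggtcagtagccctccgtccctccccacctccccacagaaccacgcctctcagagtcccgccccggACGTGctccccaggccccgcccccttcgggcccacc
Hk2, chr6:82774455-82774704, minus strand: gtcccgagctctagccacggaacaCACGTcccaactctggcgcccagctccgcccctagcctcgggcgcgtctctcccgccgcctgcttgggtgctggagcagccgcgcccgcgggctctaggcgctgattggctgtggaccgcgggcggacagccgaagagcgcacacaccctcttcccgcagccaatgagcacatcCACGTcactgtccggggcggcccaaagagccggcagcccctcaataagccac
Pfkfb3, chr2:11502091-11502340, minus strand: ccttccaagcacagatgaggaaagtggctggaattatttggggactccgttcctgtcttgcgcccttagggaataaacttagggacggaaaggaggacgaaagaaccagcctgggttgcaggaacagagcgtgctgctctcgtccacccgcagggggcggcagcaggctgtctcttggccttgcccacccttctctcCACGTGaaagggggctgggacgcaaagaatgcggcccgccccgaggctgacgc
Pfkfb3, chr2:11553930-11554179, minus strand: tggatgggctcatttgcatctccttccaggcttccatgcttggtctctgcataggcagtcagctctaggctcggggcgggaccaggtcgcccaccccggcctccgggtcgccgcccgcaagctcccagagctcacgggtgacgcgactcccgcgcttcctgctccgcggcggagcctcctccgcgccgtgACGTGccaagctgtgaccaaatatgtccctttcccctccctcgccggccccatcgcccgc

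The motif lay 36 bases before the start of Slc2a1, 226 and 52 bases before that of Hk2, and 60 bases before the second start shown for Pfkfb3. At the first start shown for Pfkfb3 it formed the E-box CACGTG, read on both strands, 53 bases upstream. Counting both starts of Hk1 and of Pfkfb3, 8 windows were searched on both strands. ACGTG was in 5 of them, the fifth being that of Hk3, against 16.6% of all 32851 mouse windows of the same length. The GC box GGGCGG was in 5 of 8 windows against 32.7%, CACGTG in 1 of 8 against 6.02%, and the AP-1 motif TGANTCA in 0 of 8 against 6.75%. These are matches of letters and do not show binding.

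With CLA, isoforms of the same step moved in opposite directions. Slc2a4, Hk2 and Pfkfb3 fell over the 7 days, by log2 differences of 2.25, 1.30 and 1.80, while Hk3, Slc2a1 and Hk1 rose by 1.94, 0.94 and 0.65. Slc2a3 and Slc2a6 did not pass. Thus 6 of 8 genes were called over all 7 days, 3 in each direction, against 38.5% of all genes (18.7% higher and 19.8% lower). On single days 32 of the 56 gene and day combinations were called, 14 higher and 18 lower, against 19% of all such combinations. Of all genes with a mean log2 level of at least 5, which leaves out Slc2a6, 58.8% were called over all 7 days. By day this share was 31.2%.

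**Figure D1:**
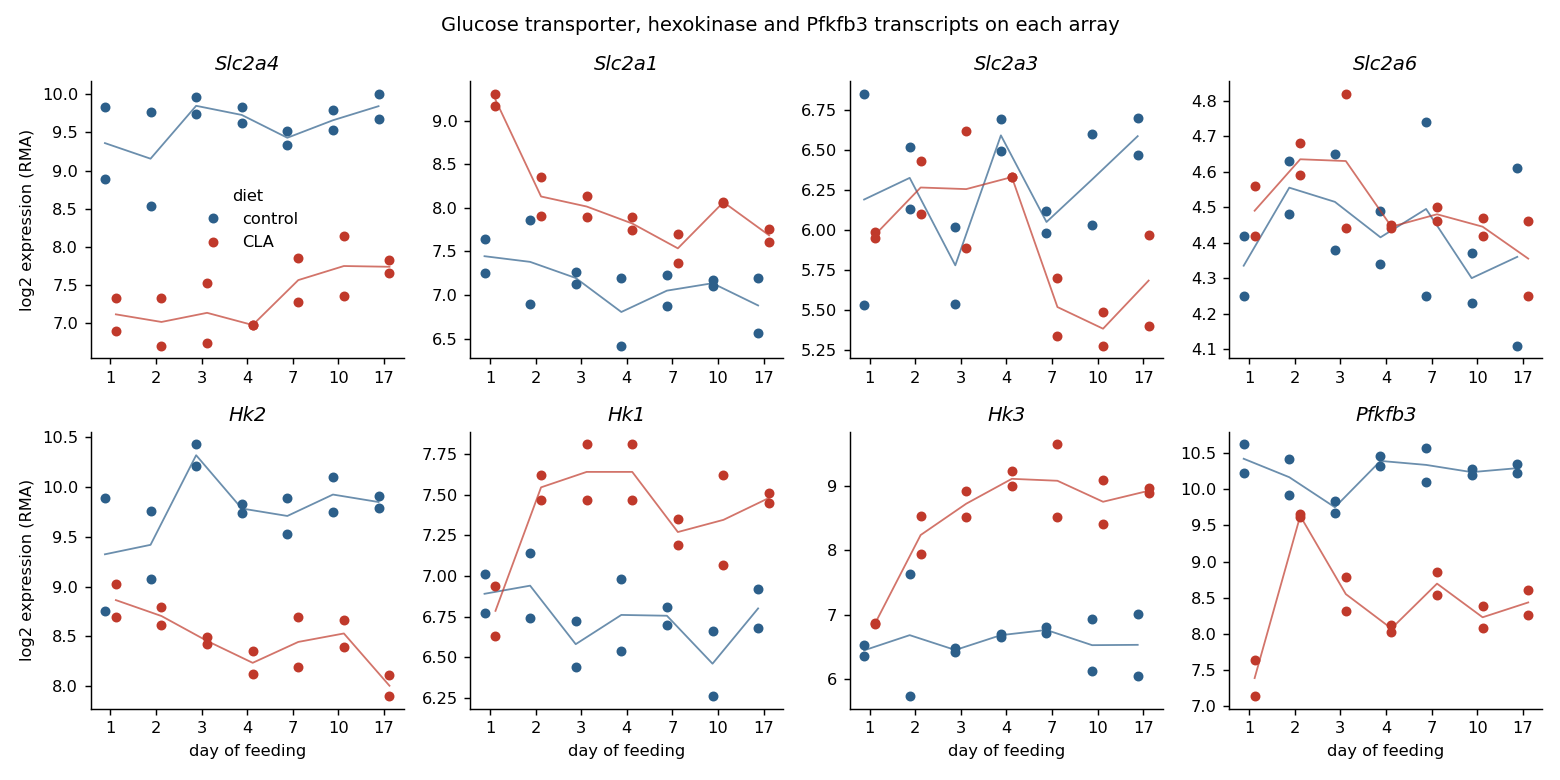
Log2 RMA expression (y axis, a separate scale for each gene) of the 8 genes on every array, by day of feeding (x axis, days not to scale). Points are single arrays, blue for control and red for CLA, and lines join the means of 2 arrays. All 14 CLA arrays lie below all 14 control arrays for Slc2a4 (6.70 to 8.14 against 8.54 to 10.01) and for Pfkfb3 (7.14 to 9.65 against 9.67 to 10.62).

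Slc2a4, the insulin-responsive transporter, showed the deepest loss over all 7 days among the 8 genes. Its signal on the 14 control arrays had a lowest value of 8.54, a median of 9.71 and a highest of 10.01, and on the 14 CLA arrays these were 6.70, 7.33 and 8.14. Every CLA array therefore lay below every control array, a separation seen in 4.41% of all genes. The difference over all 7 days was -2.25 ± 0.12 (SE, n = 7 days), a 4.77-fold fall with an adjusted p of 7.52e-06. A larger fall was measured in 57 genes, 0.313% of those tested.

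The fall of Slc2a4 was already present after 1 day. On that day the CLA arrays read 6.89 and 7.33 and the control arrays 8.89 and 9.83, a difference of -2.25 ± 0.37 (SE, n = 2 arrays per group). On days 2, 3 and 4 the differences were -2.15, -2.72 and -2.76, and on days 7, 10 and 17 they were -1.87, -1.92 and -2.11, all of them called (adjusted p from 1.47e-05 to 0.00114, limma). The CLA levels ordered as day 4 (6.97), day 2 (7.01), day 1 (7.11), day 3 (7.13), day 7 (7.56), day 17 (7.74) and day 10 (7.75). Of the neighbours in that order, only days 3 and 7 lay farther apart (0.43) than the standard error of a difference (0.37), and the CLA effect was not called as different between days (interaction adjusted p = 0.825). Without replicate 2 of the day-2 controls the day-2 difference was -1.53 (adjusted p = 0.0523), and with the 4 arrays of day 2 alone its adjusted p was 0.238.

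Hk2, the insulin-regulated hexokinase, was called as lower from day 3 on. Its control arrays ran from 8.76 through a median of 9.81 to 10.43 and its CLA arrays from 7.90 through 8.46 to 9.03. The ranges overlapped because replicate 1 of the day-1 controls read 8.76, close to the 8.70 and 9.03 of the CLA arrays of that day. The differences on days 1 and 2 were -0.46 ± 0.28 and -0.72 ± 0.28 (SE, n = 2 arrays per group) and did not pass (adjusted p of 0.310 and 0.135). From day 3 on Hk2 fell on each day, with differences of -1.87, -1.55, -1.27, -1.40 and -1.85 on days 3, 4, 7, 10 and 17 (adjusted p from 6.28e-05 to 0.00300). Over all 7 days the difference was -1.30 ± 0.17 (SE, n = 7 days), a 2.46-fold fall with an adjusted p of 0.000431.

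The smaller differences of Hk2 on days 1 and 2 were not called as a difference between days (interaction adjusted p = 0.107), and control arrays of these days bore on them. Replicate 1 of the day-1 and day-2 controls had the lowest Slc2a4 (8.89 and 8.54) and Hk2 (8.76 and 9.08) of the 14 control arrays. Hk2 passed on day 1 without replicate 1 of that day's controls (-1.03, adjusted p = 0.0115), and on day 2 without replicate 1 of that day's (-1.06, adjusted p = 0.0364). With replicate 1 of days 1 and 2 left out in both diets it passed on both days, at -0.86 (adjusted p = 0.0331) and -0.96 (adjusted p = 0.0214). Without replicate 2 of the day-1 controls, or replicate 2 of the day-2 controls, the interaction of Hk2 passed at adjusted p values of 0.00646 and 0.0448. Without replicate 1 of the day-7 CLA group, the day-7 fall was -1.01 with an adjusted p of 0.0655. In CLA the highest levels of Hk2 were on day 1 (8.87) and day 2 (8.71) and the lowest on day 17 (8.01), and no neighbours in the order of days lay farther apart than the standard error of a difference.

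Slc2a1, the transporter of most cell types, went the other way and had its largest difference on day 1. On that day its CLA arrays read 9.31 and 9.17 and its control arrays 7.64 and 7.25, so the groups were well apart. The rise was 1.80 ± 0.28 (SE, n = 2 arrays per group, adjusted p = 0.000137). From day 2 to day 17 the differences were 0.75, 0.82, 1.02, 0.49, 0.93 and 0.81. Of these, days 3, 4 and 10 were called, and days 2, 7 and 17 had adjusted p values of 0.112, 0.310 and 0.0508. Over all 7 days Slc2a1 was higher by 0.94 ± 0.14 (SE, n = 7 days), a 1.92-fold rise with an adjusted p of 0.000644.

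The day-1 level of Slc2a1 in CLA, 9.24, lay 1.11 above the next day in order (day 2, 8.13), against a standard error of a difference of 0.28. The other 6 days, from 7.54 on day 7 to 8.13 on day 2, had gaps between neighbours below that error. The interaction was not called for the probe set used (adjusted p = 0.373). It was called for another probe set of Slc2a1 (0.0234), in which day 1 was at 2.21 and day 7 at 0.14. With the mean of all probe sets of Slc2a1 the interaction was also called (adjusted p = 0.0170). The calls of days 3 and 10 were each lost with any 1 of that day's 4 arrays left out (0.70 to 0.95, adjusted p from 0.0788 to 0.224, and 0.90 to 0.97, adjusted p from 0.0790 to 0.114). The call of day 4 was lost without replicate 1 of the CLA group (0.95, adjusted p = 0.0768) or replicate 1 of the control group (0.63, adjusted p = 0.214). Day 2 passed in 3 of 16 alternatives, among them without replicate 1 of its controls (1.23, adjusted p = 0.00766). Day 17, just short of the threshold, passed in 11 of 16 (adjusted p from 0.00841 to 0.399), with a difference of 1.13 without replicate 2 of its controls and 0.49 without replicate 1.

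Hk1, the hexokinase of most tissues, was called as higher on 4 days, none of them day 1 or 2. Its CLA arrays on day 1 read 6.63 and 6.94 against control values of 7.01 and 6.77, so the groups overlapped. By day 3 the CLA arrays were at 7.47 and 7.81 and the controls at 6.44 and 6.72. The differences on days 1 to 17 were -0.11, 0.61, 1.06, 0.88, 0.52, 0.89 and 0.68, each ± 0.22 (SE, n = 2 arrays per group), of which days 3, 4, 10 and 17 were called. Over all 7 days Hk1 was higher by 0.65 ± 0.13 (SE, n = 7 days, adjusted p = 0.00347), a 1.56-fold rise.

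In CLA the Hk1 level of day 1 (6.79) lay 0.49 below the next, day 7 (7.27), beyond the standard error of a difference of 0.22. The later days, up to 7.64 on days 3 and 4, were not separated from their neighbours by more than that error. The CLA effect on Hk1 was not called as different between days (interaction adjusted p = 0.165). Single arrays decided some of the calls of single days. Day 4 fell short without replicate 2 of the CLA group (0.71, adjusted p = 0.0797) or replicate 1 of the control group (0.66, adjusted p = 0.0885). Day 10 fell short without replicate 2 of the CLA group (0.61, adjusted p = 0.114) or replicate 1 of the control group (0.69, adjusted p = 0.0857), and day 17 without any 1 of its arrays (0.56 to 0.80, adjusted p from 0.0538 to 0.191). Day 2 passed in 3 of 16 alternatives, among them without replicate 1 of its controls (0.81, adjusted p = 0.0446).

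Hk3, the hexokinase of myeloid cells, made the largest rise of the 8 genes. The CLA arrays were at 6.85 and 6.88 on day 1 and the controls at 6.36 and 6.54, a difference of 0.42 ± 0.46 (SE, n = 2 arrays per group) that did not pass (adjusted p = 0.613). On day 4 the CLA arrays read 8.99 and 9.22 against 6.66 and 6.71, and on day 17 they read 8.88 and 8.96 against 6.05 and 7.02. The differences from day 2 on were 1.55, 2.27, 2.42, 2.31, 2.22 and 2.39, all called. Over all 7 days Hk3 was higher by 1.94 ± 0.23 (SE, n = 7 days), a 3.83-fold rise with an adjusted p of 0.000254.

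The order of the CLA levels of Hk3 put day 1 lowest (6.87), then day 2 (8.24), then day 3 (8.72). The step from day 1 to day 2 was 1.37 and that from day 2 to day 3 was 0.49, against a standard error of 0.46. Days 3 to 17 lay within 8.72 to 9.11 with no gap above that error. The day-2 call leaned on a pair of control arrays that differed widely, at 7.63 and 5.74. Without replicate 2 of those controls the day-2 rise was 0.61 (adjusted p = 0.722), and without replicate 1 or 2 of the day-2 CLA group it was 1.26 (adjusted p = 0.234) or 1.85 (adjusted p = 0.0655). Replicate 1 of the day-2 controls also had the highest mean of the 12 macrophage markers of any control array, 8.74, where the other 13 lay between 7.62 and 8.06. Its proliferation marker mean was 7.41, where the other 13 lay between 4.70 and 5.64, and its adipocyte marker mean, 10.82, was the lowest in control. It also had the highest Slc2a1 (7.86) and Hk1 (7.14) of the control arrays, and all day-2 differences include this array. The interaction of Hk3 was not called (adjusted p = 0.259), but it was without replicate 2 of the day-2 controls (0.0178).

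Slc2a3, a high-affinity transporter, did not follow Hk3. Its control arrays ran from 5.53 through 6.30 to 6.85 and its CLA arrays from 5.28 through 5.96 to 6.62, so the diets overlapped widely. The daily differences were -0.22, -0.06, 0.48, -0.26, -0.53, -0.93 and -0.90, each ± 0.33 (SE, n = 2 arrays per group), and none passed. The adjusted p values closest to the threshold were 0.0524 on day 10, with CLA arrays at 5.28 and 5.49 against 6.03 and 6.60, and 0.0606 on day 17. These days lay close enough to the threshold for the processing to decide the call. Day 10 passed in 10 of 16 alternatives (-1.22 to -0.63, adjusted p from 0.0111 to 0.352) and day 17 in 6 of 16 (-1.19 to -0.38, adjusted p from 0.00884 to 0.375). Across the 7 days together the difference was -0.35 with a 95% interval from -0.71 to 0.02 (adjusted p = 0.126), and without day 3 it was -0.48 and passed (adjusted p = 0.0237). In CLA neighbouring days differed by 0.29 at most, below the standard error of 0.33, with day 10 lowest (5.39) and day 4 highest (6.33). The interaction was not called (adjusted p = 0.332), but it was without replicate 1 of the day-1 controls (0.0495).

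Slc2a6, a transporter of intracellular membranes, did not pass on any day. Its values lay between 4.11 and 4.74 on control arrays and between 4.25 and 4.82 on CLA arrays, close to the array medians of 4.1 to 4.2, and RMA values carry no detection call. Daily differences ran from -0.02 to 0.16, each ± 0.18 (SE, n = 2 arrays per group), and none passed (adjusted p of 0.635 or more). The difference over all 7 days was 0.07, with a 95% interval from -0.04 to 0.18. The levels of neighbouring days in CLA, from 4.36 on day 17 to 4.64 on day 2, differed by less than the standard error.

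Pfkfb3, the enzyme that speeds phosphofructokinase, fell most on day 1, and on day 2 its difference did not pass. Its CLA arrays read 7.64 and 7.14 on day 1, 9.65 and 9.61 on day 2, 8.31 and 8.79 on day 3 and 8.13 and 8.02 on day 4. The control arrays of these days read 10.62 and 10.22, 9.92 and 10.41, 9.67 and 9.83, and 10.32 and 10.46. The group means of control spanned 0.67 over the 7 days and those of CLA 2.24, and the day-2 CLA arrays lay just under the lowest control array of any day (9.67).

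The day-1 difference of Pfkfb3 was -3.03 ± 0.22 (SE, n = 2 arrays per group, adjusted p = 2.65e-08), an 8.17-fold fall that was exceeded in 7 genes, 0.0385% of those tested. On day 2 it was -0.54, which did not pass (adjusted p = 0.159). The differences of days 3, 4, 7, 10 and 17 were -1.20, -2.32, -1.64, -2.01 and -1.86, all called (adjusted p from 3.25e-07 to 0.000449). For the 7 days together the fall was 3.48-fold, at -1.80 ± 0.25 (SE, n = 7 days, adjusted p = 0.000570). Pfkfb3 was the 1 member of the 8 whose CLA effect differed between days (interaction adjusted p = 0.000510), against 9.82% of all genes. The day-2 difference was smaller than the day-1 difference by 2.50 ± 0.31 (SE).

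In CLA the levels of Pfkfb3 ordered as day 1 (7.39), day 4 (8.08), day 10 (8.23), day 17 (8.44), day 3 (8.55), day 7 (8.70) and day 2 (9.63). Day 1 and day 2 each stood apart from their neighbour, by 0.69 and 0.94 against a standard error of 0.22, and the 5 days between had gaps of 0.21 or less. The second probe set of Pfkfb3, which is dimmer (mean 5.92), also fell over all 7 days (-1.51 ± 0.14) but had -1.09 on day 1 and -0.91 on day 2, with no interaction call (adjusted p = 0.934). The day-1 depth and its return on day 2 were thus seen with 1 of the 2 probe sets. With the mean of both probe sets the interaction adjusted p was 0.186.

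RNA quality differed on day 1, where 3 of 4 arrays stood apart in the difference between 3′ and 5′ control probe sets. For Gapdh this difference was 1.31 and 1.27 in CLA and 1.33 and 0.15 in control, against 0.15 to 1.20 on the 24 arrays of the other days. For Actb it was 2.72 and 2.28 in CLA and 2.77 and 1.50 in control, against 0.77 to 1.87. The part of RNA quality in the day-1 differences was not tested.

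**Figure D2:**
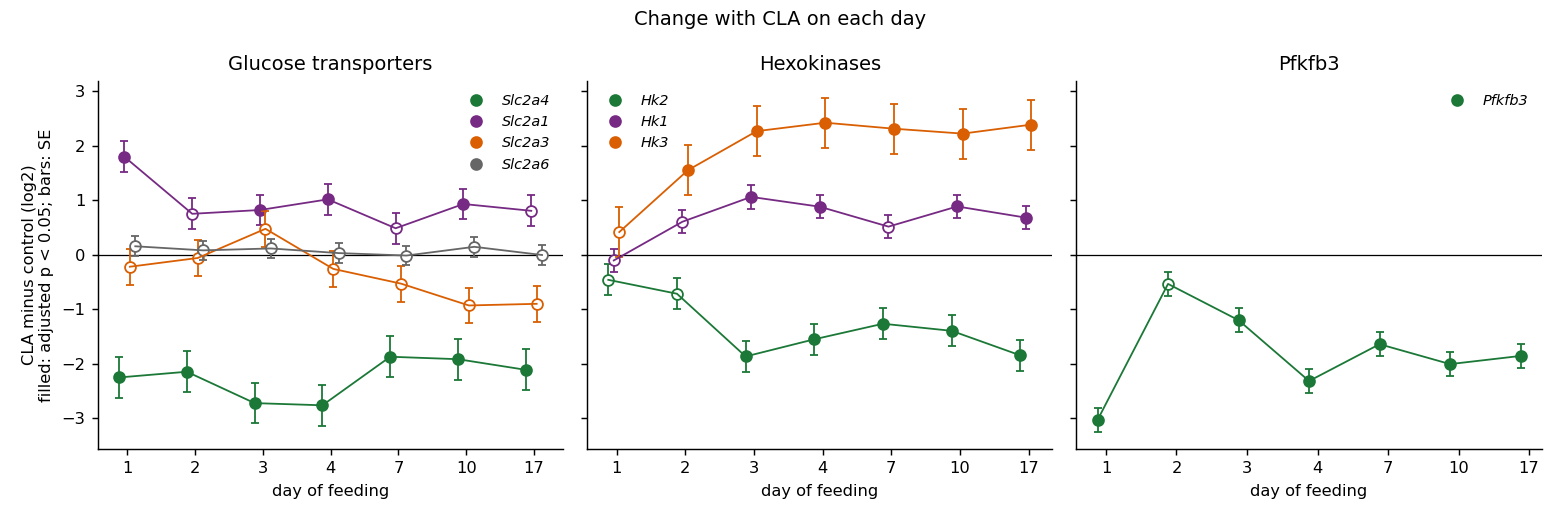
CLA minus control (y axis, log2) on each day of feeding (x axis, not to scale) for the 4 transporters, the 3 hexokinases and Pfkfb3. Points are differences of the means of 2 arrays, bars are standard errors of the model and filled points have an adjusted p below 0.05. Slc2a4 is filled on all 7 days, Hk2 from day 3 and Hk3 from day 2, and Pfkfb3 moves from -3.03 on day 1 to -0.54 on day 2.

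Day by day, the 8 genes were called as follows. On day 1 Slc2a1 rose and Slc2a4 and Pfkfb3 fell (3 of 8 called, against 18.8% of all genes, 7.96% higher and 10.8% lower). On day 2 Hk3 rose and Slc2a4 fell (2 of 8, against 10.2%, with 4.84% higher and 5.34% lower). On days 3, 4 and 10 the same 6 genes were called, with Slc2a1, Hk1 and Hk3 higher and Slc2a4, Hk2 and Pfkfb3 lower (6 of 8, against 22.3%, 24.1% and 20.3%). The shares of all genes called higher on these days were 11.3%, 12.8% and 10%, and those called lower 11%, 11.3% and 10.2%. On day 7 Hk3 was the 1 gene called higher, with Slc2a4, Hk2 and Pfkfb3 lower (4 of 8, against 17.3%, with 8.74% higher and 8.57% lower), and on day 17 Hk1 and Hk3 were higher and the same 3 genes lower (5 of 8, against 20.3%, with 11.5% higher and 8.78% lower).

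The change between early and late feeding was tested as the average difference of days 7, 10 and 17 less the average of days 1, 2 and 3. By limma 0 of 8 genes passed, against 9.71% of all genes, and 3 had an unadjusted p below 0.05. Slc2a3 moved by -0.85 ± 0.27 (SE, adjusted p = 0.0513), Hk3 by 0.90 ± 0.37 (adjusted p = 0.153) and Hk2 by -0.49 ± 0.23 (adjusted p = 0.210). Slc2a3 passed when any 1 of 5 arrays was left out, most clearly without replicate 1 of the day-1 controls (-1.07, adjusted p = 0.00298). The other 4 were replicate 2 of the day-2 controls, replicate 1 of the day-3 CLA group, replicate 1 of the day-10 controls and replicate 1 of the day-17 CLA group (-0.97 to -0.92, adjusted p from 0.0290 to 0.0423). Hk2 passed without replicate 2 of the day-1 controls (-0.68, adjusted p = 0.0253), and Hk3 without replicate 2 of the day-2 controls (1.21, adjusted p = 0.0109). Across the 7 control groups 0 of 8 genes passed, against 0.115% of all genes, and 1 had an unadjusted p below 0.05.

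Slc2a4 and Hk2, forms of fat and muscle, were set beside Slc2a1 and Hk1 of most tissues and Slc2a3 and Hk3, prominent in leukocytes. Each pair is given as the change of one minus the change of the other, with no test, since each gene has its own probes. For transporters, Slc2a4 minus Slc2a1 ran from -4.05 on day 1 to -2.36 on day 7 with a median of -2.92. Slc2a4 minus Slc2a3 ran from -3.20 on day 3 to -0.99 on day 10 with a median of -2.03, the narrowing coming with the lower Slc2a3 values of the last days. For hexokinases, Hk2 minus Hk1 went from -0.36 on day 1 to -2.93 on day 3, with a median of -2.28. Hk2 minus Hk3 went from -0.88 on day 1 to -4.23 on day 17, with a median of -3.62. The transporter pair Slc2a4 and Slc2a1 was thus most apart on day 1 and both hexokinase pairs were least apart on that day. With the probe sets used, the limma interaction of diet and day was called for no gene of these pairs (adjusted p from 0.107 to 0.825).

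The other probe sets gave the same direction for the 6 genes called over all 7 days. For this each probe set was tested on its own and adjusted over all probe sets. The second probe set of Slc2a4 fell by 2.73 ± 0.19 on the log2 scale and was called on 6 days. The further probe sets of Slc2a1 rose by 1.02 ± 0.20 and 0.78 ± 0.19, with 2.21 and 2.11 on day 1. The second probe set of Hk3 rose by 1.68 ± 0.20 and was called on 6 days, and the one used has the suffix _x_at, which marks probes that may also bind other transcripts. The second of Hk1 rose by 0.48 ± 0.13 over all 7 days but was called on 0 single days and had 0.07 on day 3. Of the 3 further probe sets of Slc2a3, the brightest (mean 5.38) gave -0.31 ± 0.12, and the others, with means of 3.04 and 2.77, gave -0.08 and 0.02. None of the 4 passed. Hk2 and Slc2a6 have 1 probe set each.

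**Figure D3:**
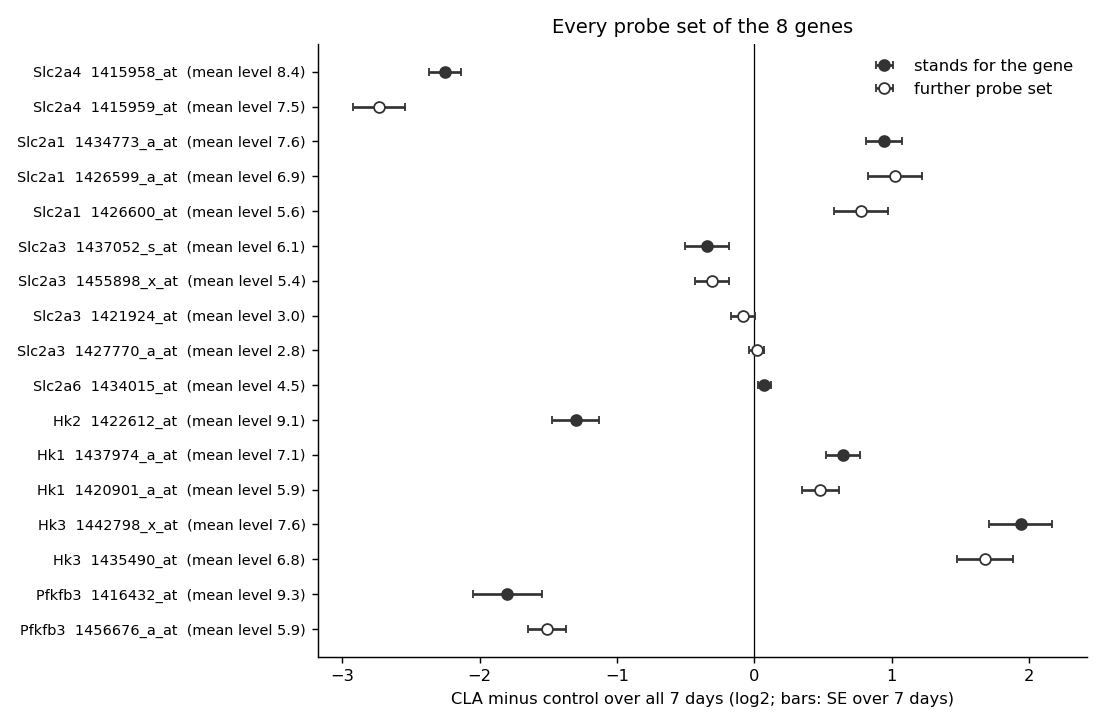
CLA minus control over all 7 days (x axis, log2) for all 17 probe sets of the 8 genes, with the mean log2 level of each over 28 arrays in its label. Filled points are the probe sets that stand for a gene, open points the further ones, and bars are standard errors over 7 days. Every probe set of Slc2a4 and Pfkfb3 lies below 0 and every one of Slc2a1, Hk1 and Hk3 above it, while those of Slc2a3 lie between -0.35 and 0.02.

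Over the 14 group means, the genes whose pattern was most like that of each member were found by Pearson's r among all genes tested. This is a description, since the groups share diet and day. For Slc2a4 they were Uck1, a uridine-cytidine kinase (r = 0.991), Fcor, a Foxo1 corepressor of fat (0.990), and Gatd3a (0.988). For Pfkfb3 they were Klb, the FGF21 co-receptor (0.979), Ffar4, a fatty acid receptor (0.977), and Cavin2, a caveolar coat protein (0.976). For Hk2 they were Acsm3, a medium-chain acyl-CoA synthetase (0.967), 2010003K11Rik (0.966) and Sdr39u1 (0.966). All 9 of these genes fell over all 7 days, by 0.95 (Cavin2) to 3.11 (Acsm3) on the log2 scale.

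The genes most like Hk3 were Sash3, a lymphocyte adaptor (r = 0.996), Tm6sf1 (0.995) and Hpse, heparanase (0.993), which rose by 1.82, 1.82 and 1.22. Those most like Slc2a1 were Maff, a small Maf transcription factor (0.974), Twistnb, an RNA polymerase I subunit (0.972), and Fam171b (0.972), which rose by 1.79, 0.68 and 1.15. Those most like Hk1 were Ppp1r21 (0.968), Dcaf7 (0.966) and Ccna2, the cyclin of S phase (0.964), with rises of 0.43, 0.52 and 2.57. The likeness was lower for Slc2a3, with Reep5 at 0.932, Cers5 at 0.892 and Tmem45a2 at 0.881, and for Slc2a6, with Pbrm1 at 0.870, Ints8 at 0.870 and Cep290 at 0.842.

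Of 71 further genes of glucose uptake, glycolysis and their control, 64 were measured. In the comparison over all 7 days 12 were higher and 28 lower, 62.5% called against 38.5% of all genes, with a median of -0.22 against -0.03. Of all genes with a mean log2 level of at least 5, which not all of the 64 reach, 58.8% were called. Among the 7 other sugar transporters 3 fell and 4 did not pass. Slc2a13, a proton-coupled inositol transporter, fell by 2.96 ± 0.21 and Slc2a5, the fructose transporter, by 2.55 ± 0.18 on the log2 scale (SE, n = 7 days), both on all 7 days. Of the other hexokinases 0 of 2 passed (limma), and Adpgk, an ADP-dependent glucokinase, had 0.09 ± 0.11 (adjusted p = 0.585).

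Below the entry step genes were called in both directions, as they were among all genes (18.7% higher and 19.8% lower over all 7 days). Of 8 genes of the other PFKFB forms, phosphofructokinase and the opposing phosphatases, 2 rose and 4 fell, and Pfkl, the liver-type phosphofructokinase, fell by 1.06 ± 0.15. Of 11 genes of lower glycolysis 2 rose, 2 fell and 7 did not pass, with a median of 0.01. This share of calls was near the 38.5% of all genes. In this list Aldoa, aldolase A, fell by 0.51 ± 0.09. Lactate formation and transport had 1 rise and 5 falls with a median of -0.71, led by Slc16a7, a monocarboxylate transporter, at -1.46 ± 0.11. Of 4 pyruvate dehydrogenase kinases, which hold back the entry of pyruvate into mitochondria, Pdk2 fell by 1.21 ± 0.12 and Pdk1 by 1.13 ± 0.07, and the others did not pass over all 7 days. On single days Pdk3 was called lower on day 1 (-0.945) and higher on 4 later days (0.57 to 0.86), and Pdk4 lower on day 3 (-0.92). Of 6 pentose phosphate genes 4 fell, Tkt (transketolase) by 1.09 ± 0.12.

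Of 9 genes of GLUT4 vesicles and their traffic, 2 rose and 5 fell, and Sort1, the sorting receptor of these vesicles, fell by 1.37 ± 0.08. The 11 regulators split into 5 rises and 3 falls. Beside both lists, 18.7% of all genes were called higher and 19.8% lower. Mlxipl, the carbohydrate-response factor ChREBP, fell by 2.40 ± 0.16, Klf15, a Krüppel-like factor known to raise Slc2a4 expression, by 2.39 ± 0.13 and Epas1, a hypoxia-inducible factor subunit, by 1.45 ± 0.10. Myc, which drives glycolytic genes in growing cells, rose by 1.64 ± 0.21 and, like Slc2a1, stood highest on day 1 (2.90). Among the genes named here as falling or rising over all 7 days, the highest adjusted p was 0.00172, that of Aldoa.

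**Figure D4:**
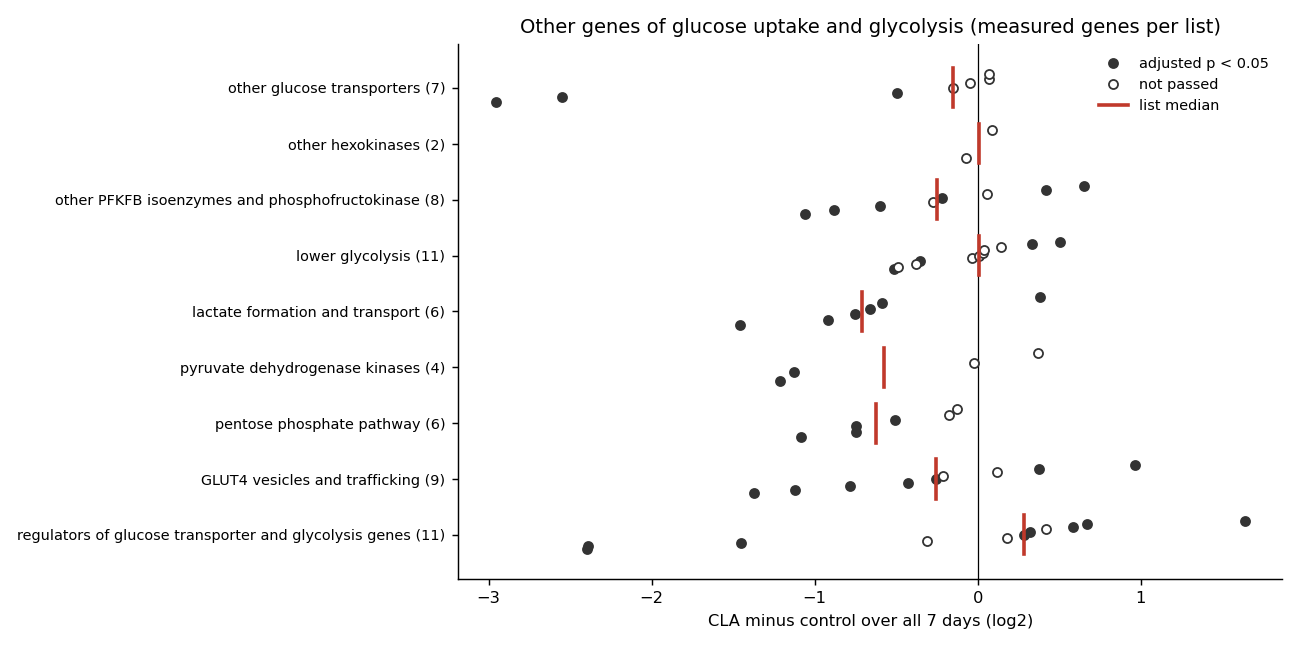
CLA minus control over all 7 days (x axis, log2) for the 64 measured further genes in 9 lists. Points are genes, filled where the adjusted p is below 0.05, and red bars are list medians. Slc2a13 (-2.96), Slc2a5 (-2.55), Mlxipl (-2.40) and Klf15 (-2.39) are farthest to the left and Myc (1.64) farthest to the right.

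The pads are mixtures of cells, and in such bulk samples fewer cells of a type and less RNA per cell cannot be told apart. The labelled tissue showed its defining markers, with Adipoq at 13.7 and Fabp4 at 13.9 on average in control. Of 10 adipocyte markers, all 10 fell over all 7 days, with a median of -1.32, against 19.8% of all genes called lower. The fall of Fabp4 depended on its probe set. The brightest of 4 gave -0.17 (adjusted p = 0.0393), a call lost in 11 of 18 alternatives, against -1.41 (adjusted p = 0.00199) for the most variable and -0.86 (adjusted p = 0.000108) for the mean of all 4. The mean level of the 10 adipocyte markers lay between 10.8 and 11.7 on control arrays and between 9.49 and 10.6 on CLA arrays, so no array overlapped. Day by day the mean difference was -1.58, -0.81, -1.44, -1.39, -1.30, -1.58 and -1.51. Slc2a4 was lower than this by 0.33 (day 10) to 1.37 (day 4), whereas Hk2, at -0.46 on day 1, had fallen less than the markers on that day. Single markers ran from -0.17 to -2.42 over all 7 days, beside -2.25 for Slc2a4. Pfkfb3 passed from -3.03 on day 1 to -0.54 on day 2 while the markers passed from -1.58 to -0.81.

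Of 12 macrophage markers 11 rose, with a median of 1.92, against 18.7% of all genes called higher. Among them Lyz2 (lysozyme) rose by 1.37 ± 0.21 and Csf1r (the receptor for macrophage growth factor) by 0.75 ± 0.20. Csf1r did not pass without day 7, 10 or 17 (0.65 to 0.70, adjusted p from 0.0501 to 0.0521). Their mean difference was 0.36 on day 1, 1.18 on day 2, 1.99 on day 3 and between 2.50 and 2.68 later. The rise of Hk3, from 0.42 on day 1 to 2.42 on day 4, moved with it, whereas Slc2a1 had 1.80 on day 1 when the markers stood at 0.36. Of 6 proliferation markers all 6 rose (median 2.81), with a mean difference of -0.07 on day 1 and 4.69 on day 4. Among 9 neutrophil markers 2 rose and 1 fell, and 4 were called higher on day 1, against 7.96% of all genes. The mean difference of that day, 0.95, was carried by S100a8 (2.57) and S100a9 (3.48), and the median was 0.22.

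**Figure D5:**
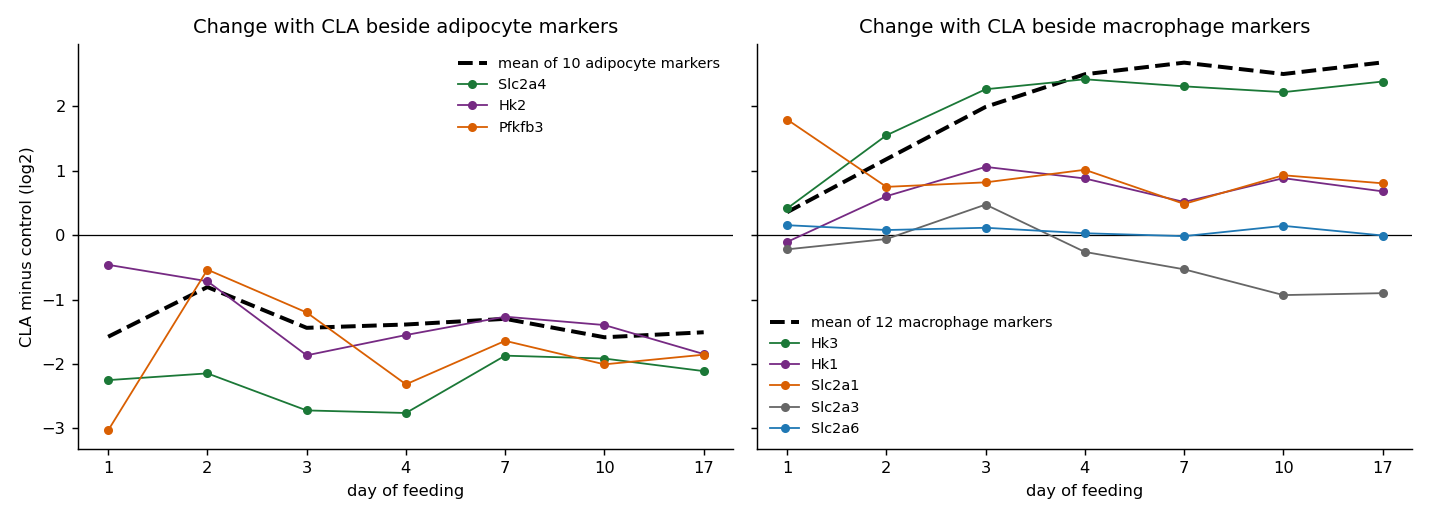
CLA minus control (y axis, log2) by day of feeding (x axis, not to scale) for the 3 genes that fell, beside the mean of 10 adipocyte markers (dashed, left), and for the other 5, beside the mean of 12 macrophage markers (dashed, right). Points are differences of the means of 2 arrays. Hk3 rises from 0.42 to 2.42 between days 1 and 4 as the macrophage mean rises from 0.36 to 2.50, and Slc2a1 is highest on day 1.

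Skeletal muscle, which also uses Slc2a4 and Hk2, varied between arrays, with a mean of 10 muscle markers between 6.11 and 9.37 on control arrays and between 5.13 and 8.73 on CLA arrays. Of these markers 3 fell and 7 did not pass. On days 1, 2 and 10 their mean difference was 0.21, 0.32 and 0.06, and on those days Slc2a4 had -2.25, -2.15 and -1.92. On days 3, 4, 7 and 17 the muscle mean was at -0.94, -1.28, -1.40 and -0.83 and Slc2a4 at -2.72, -2.76, -1.87 and -2.11. Of 7 endothelial markers 5 fell (median -1.03), where 19.8% of all genes were called lower. For the remaining lists the counts over all 7 days were 1 higher and 2 lower of 7 for brown adipocytes, 1 higher of 6 for mast cells, 1 lower of 9 for T cells, 1 higher of 5 for B cells and 1 lower of 3 for erythroid cells. These remaining lists had called shares near or below the 38.5% of all genes. The part of the cell types named here in the changes of the 8 genes was not tested.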

How the data were processed

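The authors deposited log2 probe-set values made with RMA, per the submitters' processing notes, with no version. RMA corrects background, sets arrays to 1 distribution and summarises probes. The genome build behind the annotation is not given in the sources used here. Values of the 28 arrays were used as deposited, from 1.90 to 14.18, with no filter. Of 45101 probe sets, 34958 name 1 gene, 932 several and 9211 none, and only the first were used. One probe set with the highest mean stands for each of 18194 genes. The 8 genes and the lists were chosen with earlier results of these data known.

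Differences were tested with limma 3.58.1 in R 4.3.3, two-sided, with Benjamini-Hochberg adjustment over all genes. A model of 14 groups (14 residual degrees of freedom) gave each day, the diet by day interaction, late minus early and the control days. Group means with day as a block (6 residual degrees of freedom before moderation) gave all 7 days. The fits were also run on simulated data with known changes and independent noise on each array. That run had no day or replicate structure, and its outcome is not given here. Figures used matplotlib 3.10.9. Genes named from the lists are the 10 called with the largest difference over all 7 days, each list's largest called gene (or its brightest where 0 were called), and the 2 brightest markers where values are given. The 3 genes most like each member were taken by Pearson's r over 14 group means. Alternatives were other normalisations, probe-set choices, filters, variance models, weights, blocks and arrays or days left out. Those added after the data were seen were each probe set on its own, replicate 1 of days 1 and 2 left out, and a replicate block within each day. The number of arrays limits the precision.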

Additional observations from a re-analysis of the deposited data

Results flagged for a closer look

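The effect of CLA differed between days for Pfkfb3 (interaction of diet and day in limma, adjusted p = 0.000510). CLA minus control was -3.03 on day 1, -0.54 on day 2, -1.20 on day 3, -2.32 on day 4, -1.64 on day 7, -2.01 on day 10 and -1.86 on day 17. It was lower on 7 of 7 days, and the other probe set of the gene gave no such call (adjusted p = 0.934). The effect also differed between days for the fructose transporter Slc2a5 (adjusted p = 0.0274), with -1.84, -2.64, -3.55, -2.54, -2.60, -2.04 and -2.66 on days 1, 2, 3, 4, 7, 10 and 17, lower on 7 of 7 days. Slc2a5 was not alone among the 64 further genes, and 9.82% of all genes had this call. It was also made for Pdk3 (adjusted p = 0.000545), Ldhb (0.000582), Pfkfb4 (0.00206), Fbp1 (0.00541), Arrdc4 (0.00743), Pdk4 (0.0400) and Aldoc (0.0432). The call of Slc2a5 held in 30 of 37 alternatives (adjusted p from 0.0108 to 0.122). It was lost without replicate 1 or 2 of the day-1 CLA group (0.0566 and 0.0565), replicate 1 of the day-1 controls (0.0579), replicate 1 of the day-3 CLA group (0.106), replicate 1 of the day-3 controls (0.122), replicate 1 of the day-10 controls (0.0515), and replicate 1 of days 1 and 2 in both diets (0.0896).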

How the results depend on the processing

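Under 52 alternatives, no called difference of the 8 genes changed direction. Of their values by day and over all 7 days under each alternative, 965 kept their side of the threshold, 35 lost the call and 40 gained it. For the other genes named with a value over all 7 days, 730 kept it, 16 lost the call and 8 gained it. Leaving out 1 array at a time gave 29 to 37 called gene and day combinations (32 with all arrays), and leaving out 1 day, or 1 replicate of every group, gave 6 to 7 genes over all 7 days and 32 to 41 of the 64 further pathway genes (40 as reported). The interaction called 1 gene, 2 with the most variable probe set, where Slc2a1 joined (adjusted p = 0.0193), and 1 to 3 with 1 array left out. It was called for Pfkfb3 in 36 of 37 alternatives (adjusted p from 0.000248 to 0.186), the exception being the mean of all probe sets. With that mean the 1 gene called was Slc2a1 (adjusted p = 0.0170). Late minus early, 0 genes as reported, gave 1 gene (Slc2a3) under each of quantile normalisation, a mean level of at least 5, a variance trend with robust moderation, array weights, and replicate 1 of days 1 and 2 left out, and 0 to 2 genes with 1 array left out. Over control days 0 to 0 genes were called with 1 array left out. For late minus early Slc2a3 passed in 11 of 37 alternatives (-1.07 to -0.46, adjusted p from 0.00298 to 0.109). With the mean level filter the share of all genes called over all 7 days was 58.8% in place of 38.5%, and that by day 31.2% in place of 19%.

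A replicate block changed late minus early from 0 genes to 1 (Slc2a3, adjusted p = 0.0408). It raised the called gene and day combinations from 32 to 35, with 22.3% of all genes called by day in place of 19%, and a block within each day, chosen after seeing the data, raised them to 39 (26.4%). The labels number the arrays of a group but do not say if the numbers are pairs, so they were not taken as pairs. The deviations of same-numbered arrays correlated above 0.1 in 6 of 7 days (0.098 to 0.566) and in 56 of 91 pairs of groups. All 7 correlations within a day were above 0. Over the 91 pairs of groups they ran from -0.095 to 0.623 with a median of 0.143, so high values were not confined to groups of the same day. Pairing of the arrays was not tested. With 2 arrays per group, a daily standard error of 0.18 to 0.46 for the 8 genes limits what a single day can show.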

Other observations

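Values that belong to no comparison above concern other cell types on the same arrays. The mean of 6 mast cell markers differed by 0.07 on day 1, -0.18 on day 2 and -0.37 on day 3, and by 0.74, 1.07 and 1.65 on days 7, 10 and 17. On day 17, 5 of the 6 were called higher, against 11.5% of all genes. Cpa3, the mast cell carboxypeptidase, ran from 6.48 to 9.20 over the 28 arrays. The mean of 7 brown adipocyte markers went from -1.42, -1.51 and -1.48 on days 1, 2 and 3 to 1.24, 1.58 and 0.74 on days 7, 10 and 17. The later means were carried by Ucp1 (4.34, 4.70 and 3.86), Cox7a1 and Elovl3, with medians of 0.41, 0.28 and 0.07. On each of these days 3 of 7 markers were called higher, against 8.74%, 10% and 11.5% of all genes. Cidea and Cox8b were at -0.89 and -0.88 on day 17.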
